A study of Mus musculus with 12 samples.

Results

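The 34 genes described here encode enzymes of the mitochondrial tricarboxylic acid (TCA) cycle with the pyruvate dehydrogenase complex (17 genes), and enzymes of fatty acid beta-oxidation with the electron transfer flavoproteins that serve it (17 genes). They were chosen by gene symbol, as enzymes of these 2 pathways, out of 16570 genes in the deposited table. Earlier results of these data were known when they were chosen, and all 34 had enough counts to be tested. RNA was sequenced from cultured C57BL/6J mouse bone marrow macrophages, which can become bone-resorbing osteoclasts, from mice aged 6 to 8 weeks. All 4 groups of 3 libraries received macrophage colony-stimulating factor (M-CSF, 50 ng/mL) for 2 days. The M-CSF group received nothing else. The RANKL group also received 100 ng/mL RANKL, the cytokine that drives osteoclast formation. The BMS309403 group received the same M-CSF and RANKL with 1 µM BMS309403, a compound known to block FABP4, a carrier of fatty acids in cells, and the RHC80267 group received them with 1 µM RHC80267, known as an inhibitor of diacylglycerol lipase. The labels name no vehicle for either inhibitor, and they describe a longer RANKL culture for osteoclasts in general, so the RNA comes from a shorter exposure than that. Nothing in the labels says that the 3 libraries of a group came from different cultures or mice, so the spread behind each p-value is that of these samples and may be technical.

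Pyruvate dehydrogenase turns pyruvate from glycolysis into acetyl-CoA, and beta-oxidation cuts acetyl-CoA from fatty acids after carnitine palmitoyltransferases have carried them into the mitochondrion. The TCA cycle oxidises acetyl-CoA from both sources and passes electrons to the respiratory chain. Osteoclasts are known for their many mitochondria, and their formation is known to come with a rise in oxidative metabolism.

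The libraries held 17760844 to 18344989 expected counts each, and a member had between 170 and 7623 counts in a library. Cell type markers moved with the groups, and their part in the results below was not tested. The summed level of 8 osteoclast markers was 63.8 to 89.5 CPM (counts scaled to a common library size) with M-CSF. It was 7616 to 9468 CPM with RANKL alone, 6177 to 7005 CPM in the BMS309403 group and 15227 to 17245 CPM in the RHC80267 group. That of 8 macrophage markers was 31331 to 31829, 24817 to 26467, 27467 to 29064 and 19903 to 20949 CPM in the same order. The 8 neutrophil markers summed to 672 to 1003 CPM with RHC80267 and to 1075 to 1626 CPM in the other groups, and the 8 stromal markers found in the table to 13.6 to 55.5 CPM with RHC80267 and at most 12.2 CPM elsewhere. T cell markers (7 in the table) summed to 39.4 to 41.1, 76.95 to 97.4, 116 to 127 and 43.9 to 50.6 CPM in the order given above, and B cell markers to at most 15.8 CPM. Only 2 of the 7 T cell markers had enough counts to be tested. With RANKL, 1 of them was called higher (log2 change 1.16) and 1 was not called (-0.16). Erythroid, muscle and adipocyte markers did not exceed 3.25, 2.04 and 0.164 CPM. With RANKL, all 8 osteoclast markers were called higher, and 6 macrophage markers lower and 1 higher. With BMS309403 against RANKL, 6 osteoclast markers were lower and 3 macrophage markers higher. With RHC80267 against RANKL, all 8 osteoclast markers were higher, and 5 macrophage markers lower and 1 higher. Of the neutrophil markers, 5 were higher and 2 lower with RANKL. Shares of all genes called are given with each comparison below. In these bulk samples, fewer cells of a type and less RNA per cell cannot be told apart.

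Promoters are shown for 3 members: Mdh2, which had the highest level of the 34 genes, Hadhb, which shares a start region with its partner gene Hadha, and Etfdh, which had the largest RHC80267 response among the beta-oxidation genes. Each stretch is the 250 bases before the start site in RefSeq on GRCm38.p6, 5′ to 3′ on the gene's strand, for Mdh2 chr5:135778399-135778648 on the plus strand, for Hadhb chr5:30155003-30155252 on the plus strand and for Etfdh chr3:79628768-79629017 on the minus strand. Capitals mark matches to 3 motifs searched on both strands: GCGCA, any base, then GCGC (NRF1, a regulator of nuclear genes for mitochondria), GGGCGG (SP/KLF factors), and the palindrome TCTCGCGAGA. The palindrome was added after the Mdh2 promoter had been seen, as the one of its length that occurs most often there.
Mdh2: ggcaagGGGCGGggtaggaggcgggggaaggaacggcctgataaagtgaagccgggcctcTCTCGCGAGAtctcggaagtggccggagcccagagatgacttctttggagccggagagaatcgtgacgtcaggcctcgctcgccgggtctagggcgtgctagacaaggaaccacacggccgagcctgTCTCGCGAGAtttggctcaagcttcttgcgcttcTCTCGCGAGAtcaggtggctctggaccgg
Hadhb: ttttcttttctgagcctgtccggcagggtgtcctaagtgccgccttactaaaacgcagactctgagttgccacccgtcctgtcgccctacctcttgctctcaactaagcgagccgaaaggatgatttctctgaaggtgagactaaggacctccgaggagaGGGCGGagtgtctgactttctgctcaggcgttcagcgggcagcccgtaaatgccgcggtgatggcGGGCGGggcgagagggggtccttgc
Etfdh: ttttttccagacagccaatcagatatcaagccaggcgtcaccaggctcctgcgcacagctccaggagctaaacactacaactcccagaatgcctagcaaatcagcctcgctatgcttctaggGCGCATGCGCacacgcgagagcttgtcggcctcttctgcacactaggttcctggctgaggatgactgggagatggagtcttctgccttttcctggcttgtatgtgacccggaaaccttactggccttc
The Mdh2 stretch holds 3 matches to TCTCGCGAGA, which was chosen for its count there. At least 1 match was found in 0.525% of 27025 genes, and in none of the other members with a promoter entry. An NRF1 match stands in Etfdh and also in Dld, Sucla2 and Etfb, so in 2 of 16 TCA and 2 of 15 beta-oxidation members with a promoter entry, against 5.19% of all genes. GGGCGG was in 11 of the 16 (68.8%) and 12 of the 15 (80%), against 38.2% of the 27025 genes. The CCGGAAGT run of ETS factors was in Dlst and Cpt2 (4.31% of all genes) and CACGTG, the E-box, in Ogdh (8.09%). None of the 31 members with an entry held TNAAGGTCA, the letters bound by estrogen-related receptors (1.43% of all genes), or 2 AGGNCA runs 1 base apart, those bound by PPAR with RXR (0.451%). These shares count windows of 300 bases (250 before and 50 after the start), and a match is a description of letters only. All genes means here the 27025 genes with a promoter entry, not the 12168 tested genes. The members all had enough counts to be tested, and no share over tested genes alone was taken. Matches to different motifs may overlap.

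Levels between genes were compared in TPM, a transcript abundance that the authors scaled per transcript length. In the RANKL group, Mdh2, the mitochondrial malate dehydrogenase that regenerates oxaloacetate (chr5:135778649-135790386), stood highest at 411 ± 34.7 TPM (mean ± SD, n = 3). Its cytosolic counterpart Mdh1 followed at 254 ± 20.9 TPM, then Idh3g and Idh3b, the regulatory subunits of NAD-dependent isocitrate dehydrogenase, at 215 ± 9.32 and 194 ± 4.00 TPM. Citrate synthase, Cs, which condenses acetyl-CoA with oxaloacetate, stood at 184 ± 9.71 TPM (chr10:128337727-128362482). The spreads of Cs and Idh3b overlapped, as did those of Cs and Pdhb at 172 ± 11.1 TPM. The highest beta-oxidation genes were Etfb and Etfa, the subunits of the electron transfer flavoprotein, at 154 ± 3.85 and 134 ± 2.96 TPM. The lowest members were Cpt2 and Decr1, at 19.7 ± 0.812 and 19.8 ± 0.327 TPM, which did not differ beyond their spread. Summed over the 17 TCA and pyruvate dehydrogenase genes, the level was 1307 ± 11.1 TPM with M-CSF, 2368 ± 122 with RANKL, 2071 ± 37.9 with BMS309403 and 3076 ± 11.6 with RHC80267. The 17 beta-oxidation genes summed to 1029 ± 19.8, 1359 ± 5.81, 1273 ± 19.4 and 1528 ± 20.9 TPM. Both sums thus had the same order of groups, and the spread among the RANKL libraries was widest for the TCA genes.

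**Figure D1:**
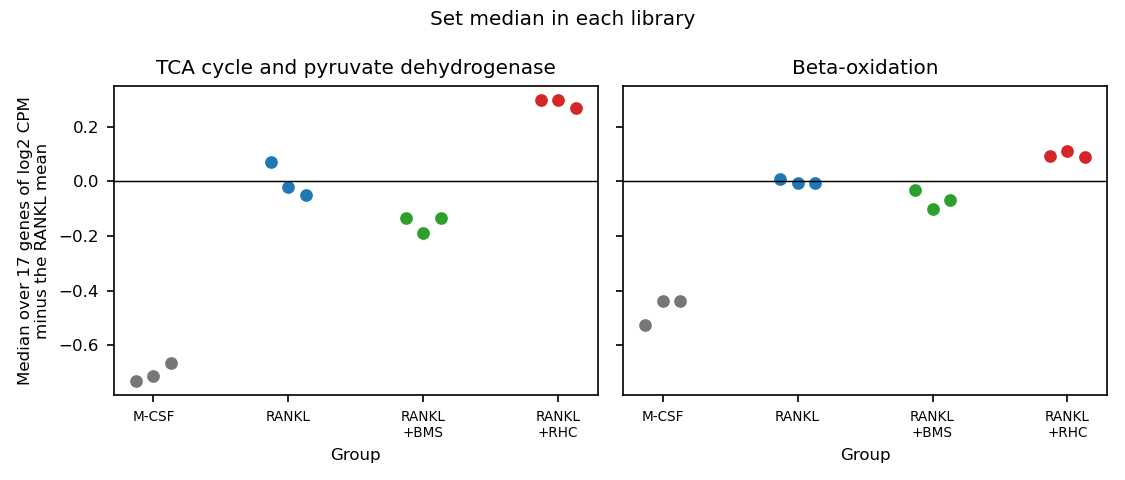
Each point is 1 library, placed on the y axis at the median log2 difference in CPM of the 17 genes of a pathway from the mean of the RANKL libraries, with the 4 groups along the x axis (RANKL+BMS and RANKL+RHC are RANKL with BMS309403 and with RHC80267). The TCA medians were -0.73 to -0.66 with M-CSF, -0.19 to -0.13 with BMS309403 and 0.27 to 0.30 with RHC80267, and the beta-oxidation medians lay closer to 0 in these groups.

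RANKL raised all 17 TCA and pyruvate dehydrogenase genes and 14 of 17 beta-oxidation genes, and none fell. The background over all 12168 tested genes was 31.4% called higher, 29.8% called lower and 61.2% called in either direction (edgeR's quasi-likelihood test, adjusted p below 0.05, as for every call here). The median log2 change was 0.70 for the TCA genes and 0.45 for the beta-oxidation genes, against 0.00276 for all genes. Changes of over 2-fold were found in 5 of the 34 genes, Idh3a, Mdh2, Pdhb, Dlat and Mdh1, all of them TCA or pyruvate dehydrogenase genes.

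In the pyruvate dehydrogenase complex, Pdhb, the beta subunit of the E1 enzyme (chr14:8165991-8173303), was at 55.5, 61.7 and 59.7 CPM with M-CSF and at 148, 138 and 131 CPM with RANKL. The lowest RANKL library was far above the highest M-CSF library, and Pdhb rose 2.36-fold (log2 change 1.24 ± 0.05 SE, adjusted p = 2.2e-15). Pdha1, the E1 alpha subunit that carries the regulatory phosphorylation sites, is X-linked (chrX:160122219-160138430). It stood at 109, 107 and 103 CPM with M-CSF and at 214, 204 and 196 CPM with RANKL, a log2 change of 0.94 ± 0.04 (adjusted p = 1.82e-14). Dlat, the acetyltransferase core, rose 2.2-fold, and Dld, the dihydrolipoamide dehydrogenase shared with the 2-oxoglutarate dehydrogenase complex, had a log2 change of 0.82. The deposited entries of Dlat and Dld have the strand opposite to RefSeq's and a longer span, a limit explained with the ratios below. All 4 of these subunits therefore rose, Dld and Pdha1 by less than the other 2.

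Among the cycle enzymes, Idh3a changed most. It encodes the catalytic subunit of the NAD-dependent isocitrate dehydrogenase (chr9:54586510-54604662), and it was at 25.2, 21.6 and 23.4 CPM with M-CSF against 87.4, 78.0 and 76.5 CPM with RANKL. The groups lay far apart, and the rise was 3.45-fold (log2 change 1.79 ± 0.06, adjusted p = 3.57e-16). The other subunits of the same enzyme, Idh3b and Idh3g, rose by log2 0.70 and 0.59, and Idh2, the NADP-dependent mitochondrial enzyme, by 0.48. Mdh2 was at 94.1, 97.8 and 108 CPM with M-CSF and at 299, 262 and 259 CPM with RANKL, with replicate 1 the highest of its group. It rose 2.73-fold (log2 change 1.45 ± 0.05, adjusted p = 7.5e-16), and Mdh1 2.06-fold. Cs was at 200.5, 197 and 194 CPM with M-CSF and at 350.4, 337 and 316 CPM with RANKL, a log2 change of 0.76 ± 0.04 (adjusted p = 3.22e-13). Ogdh, the E1 enzyme of the 2-oxoglutarate dehydrogenase complex (chr11:6291597-6359094), went from 149, 149 and 150.3 CPM to 236, 229 and 225 CPM, a log2 change of 0.62 ± 0.04 (adjusted p = 1.44e-12), and its E2 partner Dlst had a log2 change of 0.69. Fumarase, Fh1, had 0.67 and the shared succinyl-CoA ligase subunit Suclg1 had 0.65. The smallest TCA changes were those of the ligase's 2 alternative partners, the GDP-specific Suclg2 (0.39) and the ADP-specific Sucla2 (0.34). The 17 changes therefore ranged from 0.34 to 1.79 in log2, with the 2 nucleotide-specific ligase subunits at the low end and Idh3a at the high end.

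Among the beta-oxidation genes, Acsl1 and Cpt1a, which act before fatty acids enter the mitochondrion, differed in their RANKL response. Acsl1, a long-chain acyl-CoA synthetase that activates fatty acids (chr8:46471037-46536051), was at 69.8, 69.5 and 73.3 CPM with M-CSF and at 124, 124 and 115 CPM with RANKL, a log2 change of 0.77 ± 0.04 (adjusted p = 3.88e-13). Cpt1a, the carnitine palmitoyltransferase known as the rate-controlling step of entry into mitochondria (chr19:3322326-3387996), was at 186, 190.4 and 185 CPM with M-CSF and at 186, 189 and 195 CPM with RANKL. These groups overlapped, and the log2 difference was 0.02 with a 95% interval of -0.07 to 0.12 (adjusted p = 0.657). Cpt2, the inner membrane transferase, rose by log2 0.54.

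The 4 acyl-CoA dehydrogenases, which take the leading oxidation step at different chain lengths, all rose. Acadvl (very long chains) had a log2 change of 0.45, Acadl (long chains) 0.30 and Acads (short chains) 0.19. Acadm (medium chains, chr3:153922353-153944643) went from 76.2, 80.6 and 83.9 CPM to 98.2, 92.8 and 95.0 CPM, a log2 change of 0.25 ± 0.04 (adjusted p = 4.09e-05). All of these changes were below the median of the pathway or equal to it.

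The enzymes that finish a beta-oxidation round were mixed. Acaa2, a mitochondrial 3-ketoacyl-CoA thiolase, had the largest change, from 50.5, 51.1 and 50.7 CPM to 100.2, 104 and 100.2 CPM (log2 change 1.00 ± 0.04, adjusted p = 3.34e-15). Its libraries hardly varied within each group. Hadha, the alpha subunit of the mitochondrial trifunctional protein (chr5:30119423-30154980), went from 173, 175 and 175 CPM to 201, 211 and 201 CPM, a log2 change of 0.23 ± 0.04 (adjusted p = 8.22e-06). Its partner subunit Hadhb (chr5:30155253-30184593) had 0.60 ± 0.05 (adjusted p = 3.25e-10), from 94.2, 102 and 109.9 CPM to 156, 154 and 154 CPM. The 2 genes are transcribed away from each other from start sites 273 bases apart, and the Hadhb stretch printed above covers most of that gap. Echs1, the short-chain enoyl-CoA hydratase, and Hadh, the short-chain 3-hydroxyacyl-CoA dehydrogenase, were not called: their log2 differences were 0.04 (95% interval -0.06 to 0.14, adjusted p = 0.463) and 0.01 (-0.10 to 0.11, adjusted p = 0.92). With Cpt1a, these were the 3 members that RANKL did not change by this test.

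Electrons from the acyl-CoA dehydrogenases reach the respiratory chain through the electron transfer flavoprotein and its ubiquinone oxidoreductase, Etfdh (chr3:79603788-79628767). Etfdh was at 43.9, 38.9 and 41.5 CPM with M-CSF and at 78.7, 72.2 and 73.9 CPM with RANKL, so the groups did not overlap (log2 change 0.85 ± 0.06, adjusted p = 1.19e-11). Etfa and Etfb rose by 0.65 and 0.52 in log2. Eci1 and Decr1 prepare unsaturated fatty acids for the pathway. Eci1, the least counted member, went from 9.53, 9.90 and 10.95 CPM to 17.2, 15.2 and 19.98 CPM (log2 change 0.79 ± 0.10, adjusted p = 4.76e-07), and Decr1 rose by 0.45.

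**Figure D2:**
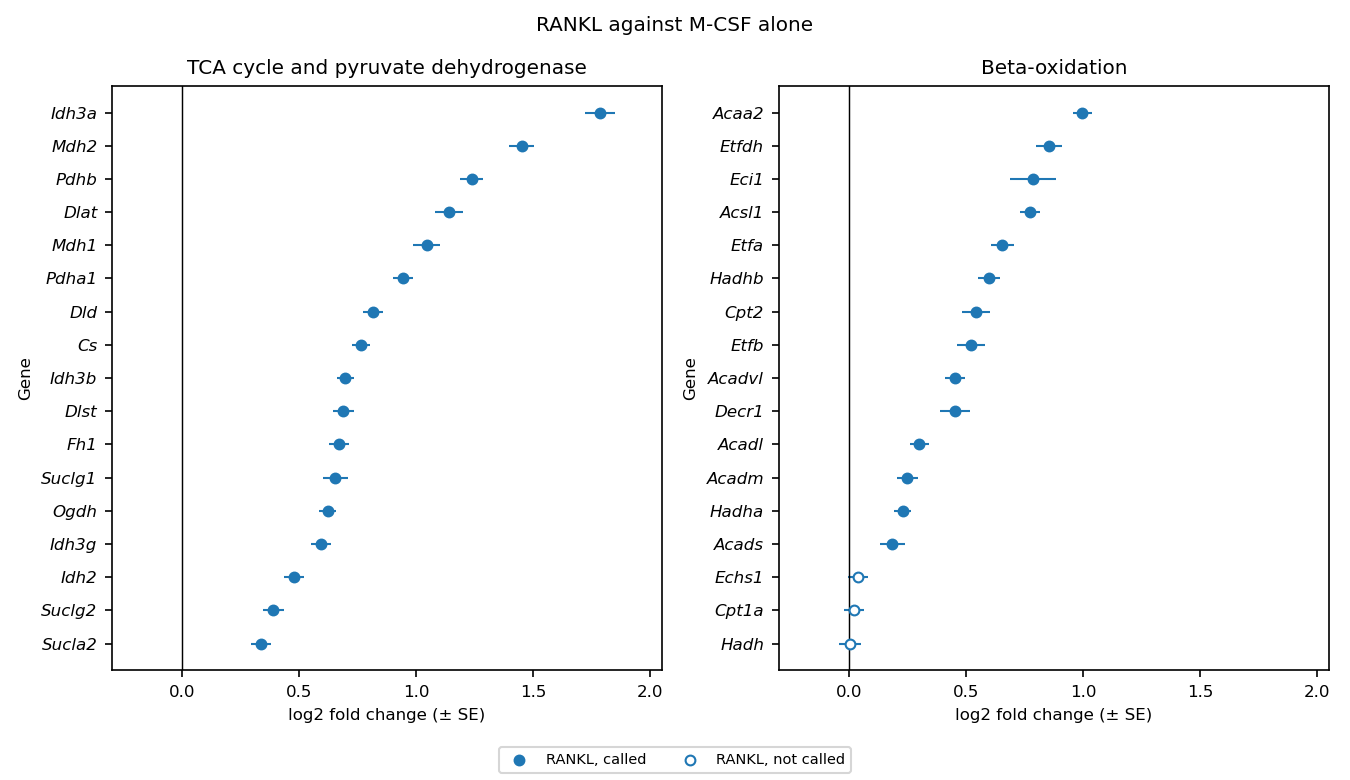
The log2 change with RANKL against M-CSF is plotted on the x axis for each of the 34 genes, listed on the y axis in order of that change within the 2 pathways; bars are ± 1 SE, filled points are called genes and open points are not. Idh3a and Mdh2 stand farthest right at 1.79 and 1.45, and the 3 open points, Cpt1a, Echs1 and Hadh, sit between 0.01 and 0.04.

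BMS309403 lowered 9 of 17 TCA and pyruvate dehydrogenase genes and 2 of 17 beta-oxidation genes, and raised none. The differences were small: each of the 11 kept its sign with any 1 library left out, but each of the 11 calls was lost without at least 1 library. The background over all tested genes was 3.74% called lower, 3.49% called higher and 7.23% called in either direction. The median log2 difference was -0.16 for the TCA genes, -0.06 for the beta-oxidation genes and -0.00560 for all genes, and all 17 TCA differences were below 0, from -0.24 to -0.02 (Suclg1, at -0.02, was at 0.03 without RANKL replicate 1 and at 0.02 without BMS309403 replicate 3). Without RANKL replicate 1, no TCA gene was called lower in edgeR's test (11 had an unadjusted p below 0.05), and without BMS309403 replicate 2, 1 was (13 unadjusted). The share of all genes called lower also fell then, to 0.904% and 1.18%. Without RANKL replicate 1, replicate 2 or BMS309403 replicate 2, no beta-oxidation gene was called (3, 4 and 3 unadjusted). RANKL replicate 1 had the highest level of its group for 15 of the 17 TCA genes, against 36.4% of all genes, and BMS309403 replicate 2 the lowest of its group for 11, against 34.7% of all genes.

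Mdh2 had the largest difference, with 299, 262 and 259 CPM in the RANKL libraries and 238, 227 and 232 CPM in the BMS309403 libraries. The groups did not overlap, and Mdh2 fell by 0.24 ± 0.05 on the log2 scale (adjusted p = 0.00654; edgeR's quasi-likelihood test). Idh3a was at 87.4, 78.0 and 76.5 CPM against 69.9, 64.1 and 72.0 CPM and fell by 0.23 ± 0.05 (adjusted p = 0.0119). Dlat was at 95.8, 82.7 and 80.6 CPM against 75.0, 73.0 and 78.6 CPM and fell by 0.19 ± 0.06 (adjusted p = 0.0412), but its difference was -0.11 without RANKL replicate 1. For these genes the lowest RANKL library and the highest BMS309403 library were close, and the calls of Mdh2 and Idh3a were also lost without BMS309403 replicate 2, that of Dlat without any 1 of the BMS309403 libraries. With 1 library left out, the log2 difference was -0.27 to -0.17 for Mdh2 and for Idh3a and -0.24 to -0.11 for Dlat. Pdha1 had narrower groups, at 214, 204 and 196 CPM against 179, 179 and 180.2 CPM, and fell by 0.19 ± 0.04 (adjusted p = 0.00665). Its call was the TCA call lost only when RANKL replicate 1 was left out, where the difference was -0.15.

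Cs went from 350.4, 337 and 316 CPM to 298, 291 and 311 CPM (log2 -0.16 ± 0.04, adjusted p = 0.0186), and Ogdh from 236, 229 and 225 CPM to 211, 208 and 208 CPM (-0.14 ± 0.03, adjusted p = 0.0182). Pdhb, Dlst and Dld were the other members lowered, by -0.18, -0.17 and -0.16 in log2, so all 4 pyruvate dehydrogenase members were among the genes called. Beside RANKL replicate 1 and BMS309403 replicate 2, each of which ended all of these 5 calls, RANKL replicate 2 ended those of Cs, Ogdh and Pdhb, BMS309403 replicate 1 those of Cs and Dlst, and BMS309403 replicate 3 those of Ogdh and Pdhb. The log2 differences in these fits were -0.20 to -0.12 for Cs, -0.16 to -0.12 for Ogdh, -0.22 to -0.13 for Pdhb, -0.20 to -0.12 for Dlst and -0.19 to -0.12 for Dld. The 8 TCA genes not called were Idh3b, Idh3g, Idh2, the 3 succinyl-CoA ligase subunits, Fh1 and Mdh1. Their log2 differences ran from -0.18 for Mdh1 (adjusted p = 0.0541 in edgeR's test) to -0.02 for Suclg1 (adjusted p = 0.892). Mdh1 was called lower without RANKL replicate 3, with DESeq2, with no scaling factors, with no filter and with only the 2 groups compared. Idh3b and Idh3g were called lower with no scaling factors.

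Of the beta-oxidation genes, Acsl1 was at 124, 124 and 115 CPM with RANKL alone and at 107, 109 and 112 CPM with BMS309403 (log2 -0.15 ± 0.04, adjusted p = 0.0225). Acaa2 was at 100.2, 104 and 100.2 CPM against 94.3, 90.1 and 93.8 CPM (log2 -0.13 ± 0.04, adjusted p = 0.0426). Neither pair of groups overlapped, but the Acaa2 call was lost without any 1 of the 6 libraries, and the Acsl1 call without replicate 1 or 2 of either group. The log2 differences were then -0.14 to -0.10 for Acaa2 and -0.18 to -0.12 for Acsl1. The other 15 members were not called: Cpt1a was at 192, 199 and 196 CPM with BMS309403 (log2 0.04 ± 0.04, adjusted p = 0.678), Acadm at 92.9, 87.2 and 92.7 CPM (-0.07 ± 0.04, adjusted p = 0.425) and Hadha at 194, 200.0 and 195 CPM (-0.06 ± 0.04, adjusted p = 0.394).

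RHC80267 raised 15 of 17 TCA and pyruvate dehydrogenase genes and 8 of 17 beta-oxidation genes above RANKL alone, and lowered 1 beta-oxidation gene, Acsl1. The background over all tested genes was 26.9% called higher, 23% called lower and 49.9% called in either direction. The median log2 difference was 0.29 for the TCA genes and 0.07 for the beta-oxidation genes, against 0.0245 for all genes, and no member differed by over 2-fold. This comparison uses the same RANKL libraries as the BMS309403 comparison, so the 2 sets of values are not independent.

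Mdh2 again had the largest difference, at 389.6, 401 and 386 CPM with RHC80267, all above the RANKL libraries (log2 0.52 ± 0.05, adjusted p = 1.84e-08). Idh3a was at 110.1, 109 and 112 CPM (0.45 ± 0.05, adjusted p = 3.02e-07). Idh2, at 109, 105 and 106 CPM with RANKL alone, was at 142, 146 and 135 CPM (0.40 ± 0.04, adjusted p = 5.55e-08). Idh2 was thus among the most changed TCA genes here, while its RANKL change was among the smaller ones.

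Ogdh was at 294, 301 and 285 CPM with RHC80267 (log2 0.35 ± 0.03, adjusted p = 2.96e-08), Pdha1 at 265, 265 and 245 CPM (0.34 ± 0.04, adjusted p = 4.66e-07) and Cs at 410.5, 407 and 402 CPM (0.28 ± 0.04, adjusted p = 3.75e-06). In each of these, the lowest RHC80267 library was above the highest RANKL library. Suclg2 and Sucla2, the alternative succinyl-CoA ligase subunits, were the TCA genes not called, with 95% intervals of -0.01 to 0.19 around 0.09 (adjusted p = 0.0791) and -0.07 to 0.12 around 0.03 (adjusted p = 0.579). The same 2 genes had the smallest TCA changes with RANKL. Suclg1, their common partner, rose by 0.17 (adjusted p = 0.00714), a call lost without RANKL replicate 2 or RHC80267 replicate 1.

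In beta-oxidation, Etfdh stood at 96.2, 107 and 99.7 CPM with RHC80267, clear of the RANKL libraries (log2 0.43 ± 0.05, adjusted p = 3.95e-07). Eci1 was at 21.7, 25.2 and 22.5 CPM (0.41 ± 0.09, adjusted p = 0.000479), and Acadvl went from 76.6, 71.5 and 76.5 CPM to 93.9, 93.0 and 90.5 CPM (0.30 ± 0.04, adjusted p = 2.51e-06). Acaa2 and Cpt2 both rose by 0.28. Acadm was at 104, 103 and 108 CPM (0.14 ± 0.04, adjusted p = 0.0112), Acads had 0.17 and Hadhb 0.12. These last 3 calls were each lost without RANKL replicate 2, when 5 beta-oxidation genes were called higher; Acadm was also lost without RHC80267 replicate 3, and Hadhb without RANKL replicate 3 or RHC80267 replicate 1 or 3.

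Acsl1 moved the other way, at 109, 107 and 106 CPM with RHC80267, below all 3 RANKL libraries (log2 -0.18 ± 0.04, adjusted p = 0.000864). Cpt1a was at 186, 213 and 197 CPM and overlapped the RANKL group (0.06, 95% interval -0.03 to 0.16, adjusted p = 0.215), though without RHC80267 replicate 1 it was called higher, at 0.11. Hadha was at 208, 203 and 199 CPM, also overlapping (-0.01, interval -0.09 to 0.07, adjusted p = 0.889). Acadl, Hadh, Echs1, Etfa, Etfb and Decr1 were the other members not called, with log2 differences from -0.04 to 0.07.

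**Figure D3:**
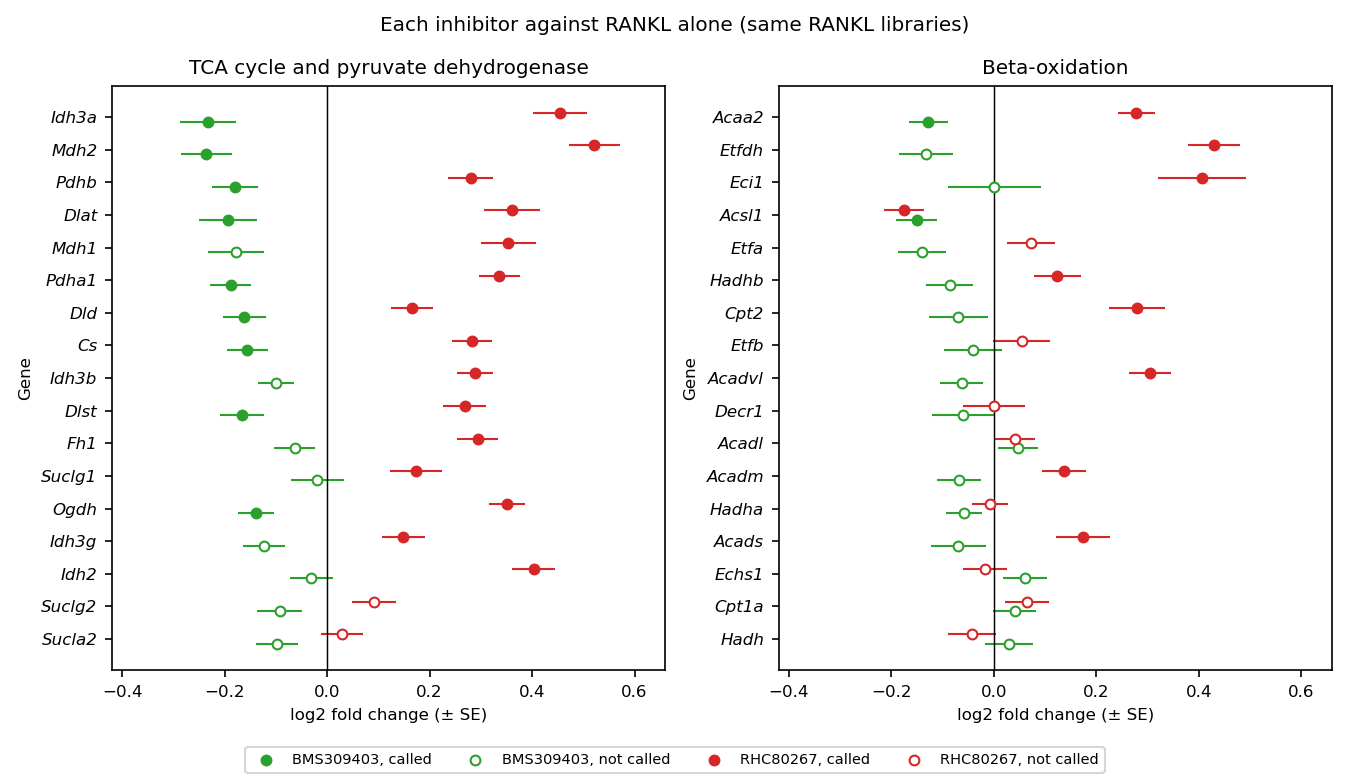
For each of the 34 genes on the y axis, in the order of their RANKL change, the x axis gives the log2 difference from RANKL alone with BMS309403 and with RHC80267; bars are ± 1 SE, filled points are called genes and open points are not. RHC80267 points of the TCA genes lie right of 0, between 0.03 and 0.52, their BMS309403 points lie left of 0, and Acsl1 is left of 0 with both inhibitors.

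Set directly against each other at the matched dose of 1 µM and 2 days, a single pair of compounds, RHC80267 gave higher levels than BMS309403 of all 17 TCA and pyruvate dehydrogenase genes and of 9 beta-oxidation genes, and lower levels of none. The background over all tested genes was 30.1% called higher, 25.5% called lower and 55.5% called in either direction, and the median log2 differences were 0.44, 0.20 and 0.0271 for the TCA genes, the beta-oxidation genes and all genes. Mdh2 stood at 227 to 238 CPM with BMS309403 and at 386 to 401 CPM with RHC80267, a log2 difference of 0.76 ± 0.05 or 1.69-fold (adjusted p = 3.54e-11). Idh3a differed by 0.69 ± 0.05 (adjusted p = 4.4e-10) and Dlat, at 105, 112 and 116 CPM with RHC80267, by 0.56 ± 0.06 (adjusted p = 2.66e-08). Pdha1, Ogdh and Cs had 0.52, 0.49 and 0.44 (adjusted p = 3.68e-10, 1.03e-10 and 4.44e-09). The smallest TCA difference was that of Sucla2, 0.13 (adjusted p = 0.013). That call was lost without BMS309403 replicate 1, with no filter and with only the 2 groups compared.

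The beta-oxidation genes with the largest differences between the inhibitors were Etfdh (0.56 ± 0.05, adjusted p = 5.43e-09), Acaa2 (0.41 ± 0.04, adjusted p = 6.34e-09) and Eci1 (0.40 ± 0.09, adjusted p = 0.000411). Etfdh was at 72.1, 66.8 and 66.2 CPM with BMS309403, and Acaa2 at 123, 125 and 120.0 CPM with RHC80267, so neither gene's groups overlapped. Eci1 was at 18.8, 16.9 and 16.7 CPM with BMS309403, below all RHC80267 libraries. Acadm differed by 0.20 (adjusted p = 0.000362). Acsl1, the gene lower with each inhibitor than with RANKL alone, differed between them by -0.03 (95% interval -0.12 to 0.07, adjusted p = 0.612). Hadha and Cpt1a were not called either, at 0.05 (adjusted p = 0.22) and 0.02 (interval -0.07 to 0.12, adjusted p = 0.651).

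The group means of all 17 TCA and pyruvate dehydrogenase genes fell in 1 order: highest with RHC80267, then RANKL alone, then BMS309403, and lowest with M-CSF. Of all genes tested, 19.2% had that order of means, and of the beta-oxidation genes 9 of 17. Leaving out RANKL replicate 1 or BMS309403 replicate 3 left 16 TCA genes in the order, and each of the other libraries left all 17. The osteoclast marker sum given above had the same order of groups, and the macrophage marker sum the reverse one, though single macrophage markers went the other way.

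**Figure D4:**
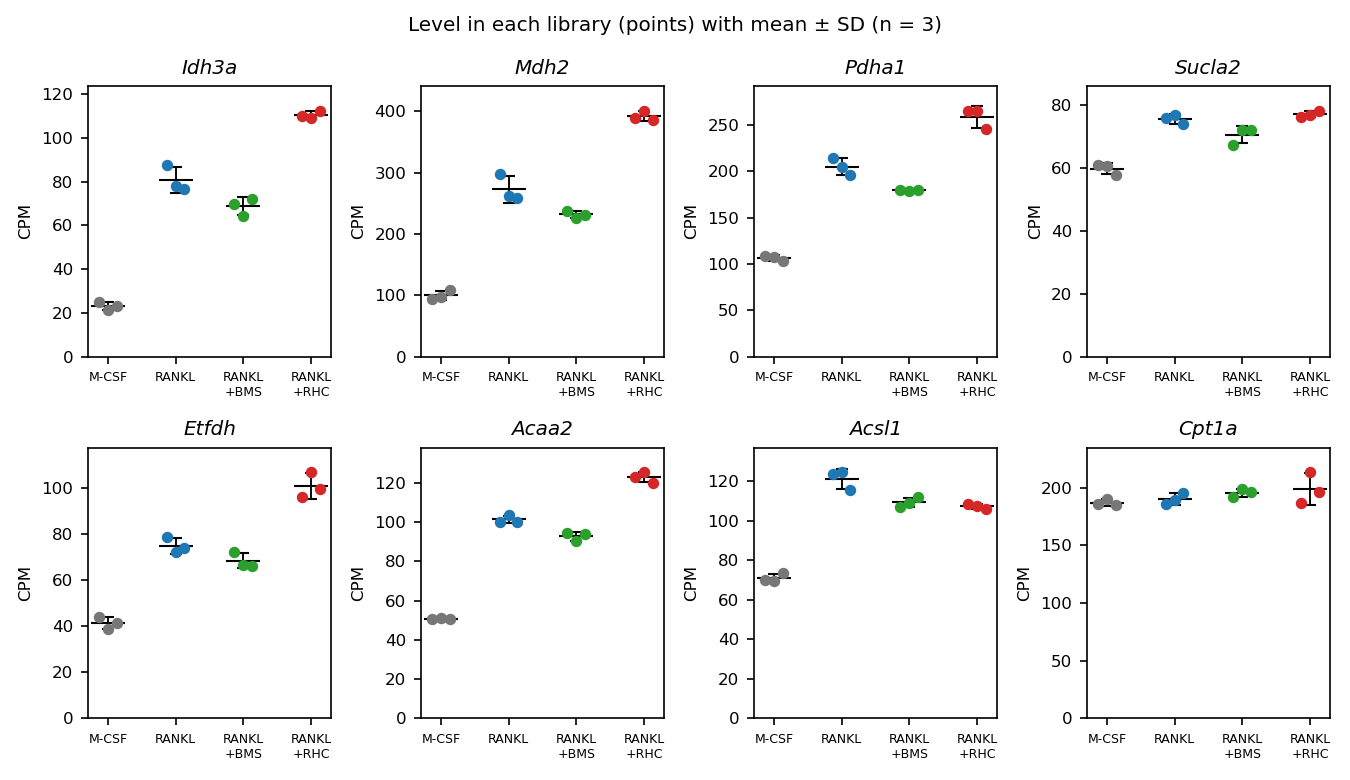
Levels of 8 members in CPM are plotted on the y axis for each library, with the 4 groups along the x axis (RANKL+BMS and RANKL+RHC are RANKL with BMS309403 and with RHC80267); points are libraries, lines are group means and bars are ± SD (n = 3). Idh3a, Mdh2, Pdha1 and Etfdh step up from M-CSF to RANKL and again to RHC80267, Acsl1 is lower with both inhibitors than with RANKL alone, and Cpt1a lies between 185 and 213 CPM in all 12 libraries.

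Ratios of TPM were taken for 6 pairs of related enzymes or subunits and are given as descriptions without a test. Idh2 exceeded Idh3a by 4.93 ± 0.289 times with M-CSF (mean ± SD, n = 3), and by 1.99 ± 0.0985, 2.28 ± 0.135 and 1.91 ± 0.105 times with RANKL, BMS309403 and RHC80267. The ratio of cytosolic Mdh1 to mitochondrial Mdh2 was 0.820 ± 0.0259 with M-CSF and 0.618 ± 0.0164, 0.646 ± 0.00618 and 0.553 ± 0.0209 in the RANKL groups. Hadha to Hadhb, subunits of 1 complex, had ratios of 1.31, 1.22 and 1.14 in the M-CSF libraries and 0.924, 0.987 and 0.933 in the RANKL libraries. Pdha1 to Pdhb had ratios of 0.830 ± 0.0573 with M-CSF and 0.676 ± 0.0141, 0.674 ± 0.0197 and 0.705 ± 0.0424 with RANKL, BMS309403 and RHC80267. These 4 ratios were lower in every library of the RANKL group than in every M-CSF library. The Sucla2 to Suclg2 ratio was 2.02 ± 0.105 with M-CSF and 1.95 ± 0.0667, 1.92 ± 0.0207 and 1.85 ± 0.0937 in the RANKL, BMS309403 and RHC80267 groups, and its M-CSF and RANKL libraries overlapped. Etfa to Etfb went the other way in its means, at 0.798 ± 0.0501, 0.870 ± 0.0334, 0.817 ± 0.0441 and 0.888 ± 0.0365 in the same order, with every RANKL library above every M-CSF library by a margin smaller than the SDs. All values of Idh2, Dlat and Dld, and the Idh2 ratio, carry a limit. The deposited entries of these genes have the strand opposite to RefSeq's and a longer span. Whether counting used strand is not given in the sources used here, so reads of overlapping genes cannot be told apart.

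**Figure D5:**
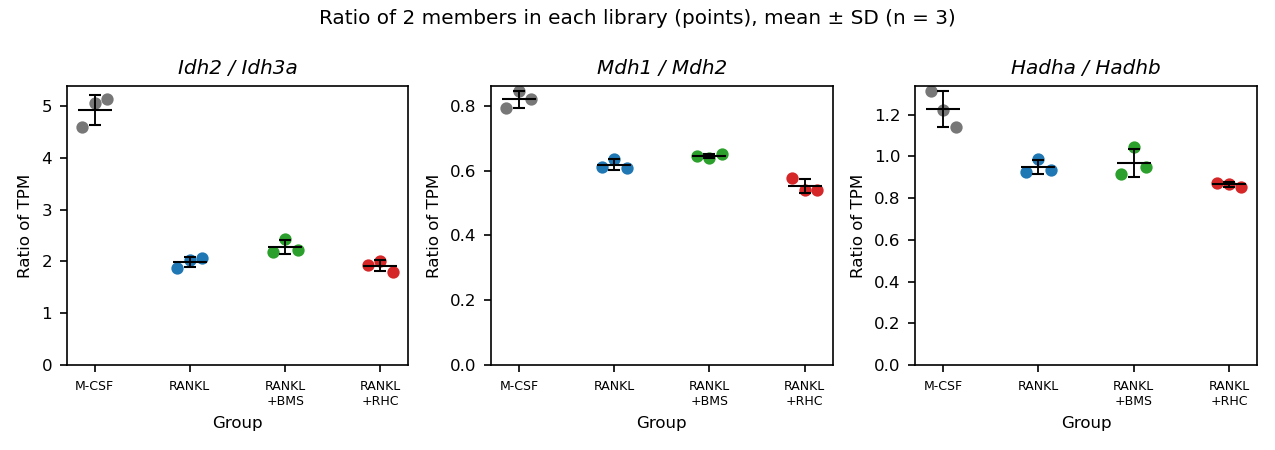
The y axis gives the ratio of TPM values in each library for Idh2 to Idh3a, Mdh1 to Mdh2 and Hadha to Hadhb, with the 4 groups along the x axis (RANKL+BMS and RANKL+RHC are RANKL with BMS309403 and with RHC80267); points are libraries, lines are group means and bars are ± SD (n = 3). The Idh2 to Idh3a ratio is near 4.93 with M-CSF and near 1.99 with RANKL, and the other 2 ratios are also lower in every RANKL library than with M-CSF.

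Genes next to the pathways were taken from 2 further lists. Of 36 tested genes next to the TCA cycle (succinate dehydrogenase, pyruvate dehydrogenase kinases and phosphatases, carriers and malic enzymes), 20 were higher and 6 lower with RANKL, and 10 were not called. The higher and lower shares were 55.6% and 16.7%, against 31.4% and 29.8% of all genes. Pdk1, a kinase that inhibits pyruvate dehydrogenase, rose from 46.9 to 103 CPM (1.13 ± 0.06), alongside the complex's own subunits. Acod1, which makes itaconate, fell from 50.6 to 11.2 CPM (log2 -2.18 ± 0.12), and the malic enzyme Me1 fell as well (-1.15 ± 0.11).

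With BMS309403, 1 of these 36 was higher and 2 were lower than with RANKL alone (2.78% and 5.56%, against 3.49% and 3.74% of all genes). Sdha, the catalytic subunit of succinate dehydrogenase, was among the lower ones (-0.18 ± 0.04, adjusted p = 0.00446), a call lost without BMS309403 replicate 2. Mpc1, a subunit of the mitochondrial pyruvate carrier, was the higher one (0.17 ± 0.05, adjusted p = 0.0249), with overlapping groups. Its call was lost without replicate 1 or 2 of either group and with no scaling factors. With RHC80267, 15 were higher and 8 lower than with RANKL alone. These were 41.7% and 22.2%, against 26.9% and 23% of all genes, so the lower share was near that of all genes. Acod1 went to 2.38 CPM (-2.23 ± 0.20), Pdp1, a phosphatase that activates pyruvate dehydrogenase, from 50.5 to 24.1 CPM (-1.07 ± 0.07), Me1 had 0.61 ± 0.11 and Pcx, pyruvate carboxylase, 0.56 ± 0.12. Between the inhibitors, 19 were higher and 9 lower with RHC80267. The shares were 52.8% and 25%, against 30.1% and 25.5% of all genes, so here too the lower share was near that of all genes. Acod1 (-2.50 ± 0.19) and Pdp1 (-1.21 ± 0.07) were lower, and Pdk1 (0.70 ± 0.06) was higher.

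Of 36 tested genes next to beta-oxidation (other acyl-CoA synthetases and dehydrogenases, carnitine carriers and peroxisomal enzymes), 17 were higher and 5 lower with RANKL. The shares were 47.2% and 13.9%, against 31.4% and 29.8% of all genes. Hsd17b10, a mitochondrial 3-hydroxyacyl-CoA dehydrogenase, rose from 31.8 to 81.1 CPM (log2 1.35 ± 0.06), and Acad10, an acyl-CoA dehydrogenase family member, from 6.69 to 14.7 CPM (1.14 ± 0.10). Abcd2, a peroxisomal fatty acid transporter, fell from 50.4 to 23.9 CPM (-1.08 ± 0.06). Cpt1c, of the same family as Cpt1a, was at 0.804 and 1.77 CPM (1.13 ± 0.29). With BMS309403 none was higher and 1, Hsd17b10, was lower than with RANKL alone (-0.23 ± 0.05, adjusted p = 0.00752), a call that was present under all 15 alternative settings. The shares were 0% and 2.78%, against 3.49% and 3.74% of all genes.

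With RHC80267, 17 of these 36 were higher and 5 lower than with RANKL alone (47.2% and 13.9%, against 26.9% and 23% of all genes). Abcd2 rose to 43.1 CPM (0.85 ± 0.06), against its direction with RANKL, and the peroxisomal enzyme Ehhadh to 5.56 CPM (0.67 ± 0.16). Acacb, an acetyl-CoA carboxylase whose product inhibits Cpt1 enzymes, went from 0.608 to 1.246 CPM (1.03 ± 0.32, a call lost without RHC80267 replicate 1). Cpt1b, another Cpt1a relative, went from 1.01 to 1.90 CPM (0.90 ± 0.25). Levels of these 2 genes were near 1 CPM, far below those of Cpt1a. Between the inhibitors, 18 were higher and 5 lower with RHC80267 (50% and 13.9%, against 30.1% and 25.5% of all genes). Among the higher ones were Acacb (1.09 ± 0.32, lost without BMS309403 replicate 1), Eci3 (1.04 ± 0.32, lost with DESeq2), Cpt1c (0.98 ± 0.25) and Ehhadh (0.83 ± 0.17).

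Of 8 tested regulators of mitochondrial and fatty acid genes, Ppargc1b, a coactivator of estrogen-related receptors, had the largest changes: 6.11 CPM with M-CSF, 53.6 with RANKL, 40.2 with BMS309403 and 86.1 with RHC80267 (log2 changes against RANKL alone of -0.41 ± 0.06 and 0.68 ± 0.05). Esrra, the estrogen-related receptor alpha, was at 37.4, 55.7, 50.2 and 79.2 CPM, called higher with RANKL and with RHC80267 and not called with BMS309403. The nuclear receptors Rxra and Ppard were lower with RANKL (log2 -0.65 and -0.63), and Pparg was lower with RHC80267 than with RANKL alone (-0.43) and than with BMS309403 (-0.45).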

How the data were processed

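The members and the other gene lists were chosen with earlier results of these data known. RNA of 12 libraries in 4 groups of 3 was read from the table the authors deposited, which gives expected counts (RSEM's estimated counts, per the file headers and values) and TPM, deposited by the authors, for 16570 genes. Per the submitters' processing notes, the tools included RSEM 1.3.1, Bowtie2 and DESeq2 1.4.5. Their order, read filters and strand use, and the build, are not given here by any source used. Positions in the table were set beside RefSeq's on GRCm38.p6, where 26 of 34 members had the same start and end. No deposited position is given for Acadl and Acadvl, whose deposited entries could not be assigned to a chromosome here. RefSeq places these genes on chromosomes 1 and 11.

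Expected counts were rounded, 4402 genes with low counts were removed (filterByExpr by group), and TMM factors scaled the libraries. All 12 libraries entered 1 quasi-likelihood fit in edgeR 4.0.16 (R 4.3.3), with group as the term and 8 residual degrees of freedom; the common biological coefficient of variation was 0.037. Calls needed an adjusted p (Benjamini-Hochberg, over 12168 genes) below 0.05. CPM uses TMM-scaled library sizes, an SE is the absolute log2 change divided by the square root of F, and 95% intervals use t with 8 degrees of freedom. The fit was also run on simulated counts, with the same coefficient of variation for every gene and no library shifted beyond its depth. That run cannot show how calls behave where 1 library stands apart, as with BMS309403.

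All members are accounted for. Library values are given for the 3 called members of each pathway with the largest change in each direction, and for Cs, Ogdh, Pdha1, Cpt1a, Acadm and Hadha; Hadhb was added after its values were seen. From each further list, up to 4 called genes with the largest change and, in the higher of the 2 groups, a mean from 1 CPM upward are named, except for 1 gene that is not reported here. Promoter sequences come from RefSeq, with an entry for 31 of 34 members. Alternatives were DESeq2 1.42.0, limma-voom 3.58.1, RLE, upper-quartile and no scaling factors, no filter, at least 1 CPM in 3 libraries, a replicate block, a fit of only the 2 groups compared, and each library left out.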

Additional observations from a re-analysis of the deposited data

How the results depend on the processing

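Under 15 alternatives for each comparison, the counts with RANKL did not move, and all 31 called members were called in each. With RHC80267 against RANKL, 20 of 24 calls were present in every alternative, and against BMS309403, 25 of 26. None of the 11 BMS309403 calls was. No called difference reversed. For BMS309403 against RANKL, the count of lower TCA genes, 9, ranged from 0 to 10 with 1 library left out, and that of lower beta-oxidation genes, 2, from 0 to 1; the latter was 1 with DESeq2, with no filter, with a replicate block and with only the 2 groups compared. With RHC80267 against RANKL, the count of higher beta-oxidation genes, 8, ranged from 5 to 8 with 1 library left out. Between the inhibitors, the count of lower beta-oxidation genes, 0 in edgeR's test, was 0 to 1 with 1 library left out (Hadh, without BMS309403 replicate 2). Library totals with no scaling factors added calls, among them Cpt1a and Hadha between the inhibitors, whose adjusted p in the edgeR fit with TMM factors was 0.651 and 0.22; the median of all genes moved by at most 0.0743 in log2 under any scaling. Differences of about 0.1 in log2 are close to the spread of 3 libraries, so a member not called may still differ by that much.

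No pairing by replicate number was detected: deviations of same-numbered libraries correlated between -0.0458 and 0.0895, and 3 of 12 best matched their own number. With 3 libraries per group, such correlations cannot exclude a weak pairing. With the replicate block, 8 TCA genes and 1 beta-oxidation gene were lower with BMS309403, Dlat and Acaa2 losing their calls.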
